A study of Mus musculus with 12 samples.

Results

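Interferon-response genes are genes whose transcripts climb when a cell receives an interferon signal. The set described here is a list of 39 interferon-stimulated genes given by name, with no threshold on their values, and all 39 were found among the 44205 genes of the deposited table. RNA was sequenced from the ileum, the last stretch of the small intestine, of 12 C57BL/6 mice that were 16 weeks old and had been on their diets for 10 weeks. HF-Sugar mice received a high-fat diet, with 60% of its kcal from fat, and a 23% (w/v) sugar drink, HF mice the high-fat diet with plain water, NF-Sugar mice the normal-fat diet with the sugar drink, and NF mice the normal-fat diet with plain water. Each group held 3 separate mice of the same strain with no other treatment, so HF-Sugar is a diet model and not a model of infection or of interferon treatment.

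Interferons are secreted proteins that signal through receptors and Jak kinases. Type I and type III interferons activate a complex that contains Stat2 and Irf9 and binds the interferon-stimulated response element (ISRE), while type II interferon, encoded by Ifng, acts through the gamma-activated site (GAS). The products of the target genes sense foreign nucleic acids, block viral translation and replication, and attack the vacuoles of intracellular microbes. In the gut, interferon-stimulated genes are expressed by the epithelium and by immune cells of the lamina propria, and the bulk tissue measured here holds both. In such tissue more cells of a type and more RNA per cell cannot be told apart.

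The known DNA elements of the pathway were looked for in RefSeq promoter windows of build GRCm38.p6, each of which covers 250 bases before and 50 bases after an annotated transcript start. Of the 39 genes, 29 had a window. The 10-letter ISRE core, spelled GAAA, any 2 bases, GAAA and searched on both strands, occurred in the windows of 17 of these 29 genes (58.6%), against 1079 of all 27025 genes with a window (3.99%). The 9-letter GAS core TTCNNNGAA, which reads the same on both strands, occurred in 6 of the 29 genes (20.7%), against 9.55% of all genes. Matches of the 2 cores can overlap by a few letters, as they did upstream of Bst2, and a match is a string of letters and not a measured binding site. The stretches of 200 bases before the start are shown for 6 genes, with ISRE and GAS matches in capitals. Ifit1, Ifit3 and Ifit3b are shown because they carry the separation between diets described further on and are neighbors on 1 chromosome, Isg15 for its run of overlapping ISRE cores, and Igtp and Gbp7 as GTPase genes that carry both cores.
Ifit1 (chr19:34640689-34640888, plus strand): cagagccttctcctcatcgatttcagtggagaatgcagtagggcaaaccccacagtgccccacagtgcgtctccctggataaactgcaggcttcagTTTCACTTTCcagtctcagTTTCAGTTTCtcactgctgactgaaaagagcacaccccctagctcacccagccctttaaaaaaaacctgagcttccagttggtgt
Ifit3 (chr19:34583329-34583528, plus strand): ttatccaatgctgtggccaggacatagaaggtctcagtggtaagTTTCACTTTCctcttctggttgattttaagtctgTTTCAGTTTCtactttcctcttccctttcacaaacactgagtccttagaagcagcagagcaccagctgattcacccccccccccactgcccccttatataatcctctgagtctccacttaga
Ifit3b (chr19:34607757-34607956, plus strand): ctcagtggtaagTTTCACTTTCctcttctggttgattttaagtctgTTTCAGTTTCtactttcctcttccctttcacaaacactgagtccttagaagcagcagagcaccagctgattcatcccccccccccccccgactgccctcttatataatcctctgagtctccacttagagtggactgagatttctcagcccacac
Isg15 (chr4:156200819-156201018, minus strand): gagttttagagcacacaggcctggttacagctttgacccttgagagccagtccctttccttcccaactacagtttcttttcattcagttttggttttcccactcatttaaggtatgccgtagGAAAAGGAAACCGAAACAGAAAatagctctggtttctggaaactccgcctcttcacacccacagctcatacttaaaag
Igtp (chr11:58199356-58199555, plus strand): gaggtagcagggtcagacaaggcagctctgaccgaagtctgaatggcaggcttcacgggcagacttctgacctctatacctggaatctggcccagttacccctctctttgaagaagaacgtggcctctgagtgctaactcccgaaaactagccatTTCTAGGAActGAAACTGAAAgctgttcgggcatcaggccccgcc
Gbp7 (chr3:142530136-142530335, plus strand): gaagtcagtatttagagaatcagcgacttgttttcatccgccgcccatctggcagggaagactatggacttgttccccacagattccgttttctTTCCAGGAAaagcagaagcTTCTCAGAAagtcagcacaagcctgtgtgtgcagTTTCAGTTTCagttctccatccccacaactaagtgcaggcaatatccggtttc

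Ifit1 carried 2 ISRE cores, whose first letters lay 104 and 85 bases before its start. Ifit3 and Ifit3b carried the same pair of cores as Ifit1, TTTCACTTTC and TTTCAGTTTC, at 156 and 122 bases in Ifit3 and at 188 and 154 bases in Ifit3b. Isg15 carried 3 cores that overlap one another, beginning 78, 72 and 66 bases before its start. In Igtp the GAS core (45 bases before the start) lies just before the ISRE core (34 bases before it), and Gbp7 held 2 GAS cores and 1 ISRE core. Neither core was found in the windows of Irf7, Irf9, Oasl1, Oasl2, Cmpk2, Xaf1, Lgals3bp, Dtx3l, Ifi44 and Ifi47.

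Expression levels are given in RPKM, the reads of a gene scaled to its exon length and to the mapped reads of the library, so that levels can be compared between genes. The libraries held 15.3 to 38.97 M reads, as recovered from the steps between their low values, with NF replicate 1 the deepest and NF-Sugar replicate 3 the shallowest. Differences were fitted with limma over all 17662 genes that reached 0.5 RPKM in at least 3 libraries, on log2(scaled RPKM + 1), and the threshold was an adjusted p of 0.05 (Benjamini-Hochberg). On this scale the change of a gene near or below 1 RPKM is understated. HF-Sugar replicate 2, HF replicate 2, NF-Sugar replicate 1 and NF replicate 2 stood apart from the other 8 on the first principal component (40.1% of the variance). The tissue markers were those of ileum, with the ileal bile acid carrier Fabp6 at 2415 RPKM or more in every library.

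All 39 genes had reads in all 12 libraries, and 37 passed the filter on low values. Oas2 passed only through its HF-Sugar libraries, with 1 library at 0.5 RPKM outside that group. The 2 that did not pass were Ifi44, at 0.0335 to 0.321 RPKM, and Mx2, at 0.162 to 0.479 RPKM. The most abundant was Lgals3bp, a secreted glycoprotein that binds galectins, at 47.7 to 84.9 RPKM, followed by Ifi35, Irf7, Oasl1 and Isg15. The spread over the 12 libraries was widest for the GTPase gene Igtp, whose highest value was 12.0 times its lowest, and for the nucleic acid sensor Zbp1 (11.9 times), and it was narrowest for the helicase gene Dhx58 (1.68 times). Within groups the median standard deviation of the members was 0.33 on the log2 scale, against 0.22 over all tested genes.

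All 37 tested members had a higher fitted level in HF-Sugar mice than in NF mice, where 48.2% of all tested genes did, and none of them passed the test. Over the 39 members the mean RPKM was highest in HF-Sugar mice for 35 (89.7%), against 32.1% of all tested genes, and highest in HF mice for Ddx58, Oasl1, Cmpk2 and Ifi35. The median of the fitted differences was 0.41 on the log2 scale, against -0.01 over all tested genes. The smallest limma adjusted p of a member was 0.961 (0% of the 17662 genes passed), and 9 members had an unadjusted limma p under 0.05, all of them higher (against 2.34% of all genes higher and 2.08% lower). In unscaled RPKM all 3 HF-Sugar libraries lay above all 3 NF libraries for 15 of the 37 members (40.5%), against 7.21% of all tested genes, and for 0 members all 3 lay below (2.97% of all tested genes). Oas2, which passed the filter only through its HF-Sugar libraries, is among the 15, so its separation was in part set by the filter. Without Oas2 all 36 other tested members were higher, with a median of 0.41. After scaling by trimmed mean of M values (TMM) 9 of the 37 members were wholly above, against 1141 of the 17662 tested genes (884 wholly below). The separations of single genes given below are in unscaled RPKM, and some of those from NF do not hold after this scaling. Without NF replicate 2 or without HF-Sugar replicate 1 the unscaled count was 30 or 23. Fewer libraries make separation easier, and the share over all genes was not counted for these settings. With a pseudocount of 0.1 in place of 1 the median was 0.65. No single member passed once adjusted over all genes, although all 37 differences pointed the same way. The members moved together, so they are not 37 separate observations. The correlation of a member with the mean of the other members had a median of 0.83, and genes outside the set had a median of 0.007.

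Against HF mice, which ate the same fat without sugar, HF-Sugar mice separated for more members than in the other 4 pairs of groups. The difference was above 0 for 33 of 37 members (51.4% of all genes), with a median of 0.45 against 0.01 over all genes. No member passed (0.00566% of the tested genes did, a single gene outside the set), with adjusted p from 0.488 upward, and 16 members had an unadjusted p under 0.05, all higher, against 2.17% of all genes. All 3 HF-Sugar libraries lay above all 3 HF libraries for 21 members (56.8%), against 4.69% of all tested genes, and for 0 members all 3 lay below (5.15% of all tested genes). Oas2, tested only through its HF-Sugar libraries, is among the 21. Without Oas2 the difference was above 0 for 32 of 36 members, with a median of 0.46. Without the 4 libraries that stood apart 32 members were wholly above, where fewer libraries make separation easier and the share over all genes was not counted. With a pseudocount of 0.1 the median was 0.67. The 4 members that were not higher were Ddx58, Oasl1, Cmpk2 and Ifi35.

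Against NF-Sugar mice, which drank the same sugar on normal fat, the values of HF-Sugar mice overlapped for most members. The difference was above 0 for 36 of 37 (49.1% of all genes), with a median of 0.35, none passed (0% of all genes), and 2 had an unadjusted p under 0.05 (Ifit3b and Rsad2; 1.04% of all genes were higher at that level). Only Ifit2, Ifit3b and Rsad2 lay wholly above the NF-Sugar libraries, 8.11% of the members against 4.29% of all genes, and 0 members wholly below (1.64% of all genes). Without NF-Sugar replicate 2 the median was 0.13. Fat alone and sugar alone gave smaller differences. HF mice against NF mice had a median difference of -0.06, with 13 members above 0 (47.2% of all genes), none passing (0% of all genes) and 1 gene, Cmpk2, wholly above (5.37% of all genes) and 2, Oas1a and Usp18, wholly below (2.97%). At an unadjusted p under 0.05 only Oas1a was lower in HF mice (1.9% of all genes). NF-Sugar mice against NF mice had a median of 0.13, with 28 members above 0 (48.6% of all genes), none passing (0% of all genes) and only Mx1 wholly above (3.22% of all genes), 0 wholly below (2.64%) and 0 at an unadjusted p under 0.05 (0.781% of all genes were higher and 1.08% lower at that level). Leaving out NF replicate 2 turned the median of HF against NF to 0.12, and leaving out NF-Sugar replicate 3 turned that of NF-Sugar against NF to -0.07. These comparisons share groups with one another and are not independent.

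**Figure D1:**
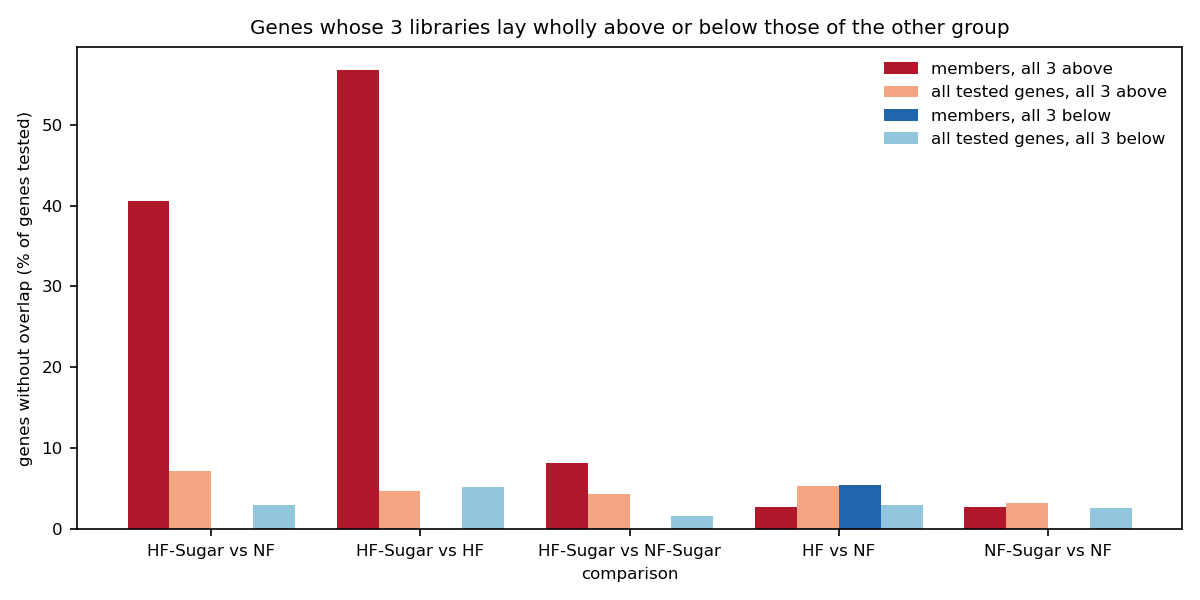
The height of each bar gives the percentage of genes for which all 3 libraries of the group named first lay above (reds) or below (blues) all 3 libraries of the group named second, in unscaled RPKM, for the 37 tested members and for all 17662 tested genes, in the 5 pairs of groups on the horizontal axis. Members stand at 40.5% and 56.8% above in HF-Sugar against NF and against HF, where all genes stand at 7.21% and 4.69%, and near the level of all genes when HF or NF-Sugar is compared with NF.

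The crossed design also gave average effects of each diet component. The average difference between sugar and water had a median of 0.27 over the members (34 of 37 above 0, against 49.9% of all genes) and that between high and normal fat 0.15 (36 of 37, against 47.1%). The interaction, that is the effect of sugar on high fat minus its effect on normal fat, had a median of 0.40 (32 of 37 above 0, against 51% of all genes). No member passed for any of the 3 terms (0% of all genes in each), so a dependence of the sugar difference on fat was not established for any single gene. At an unadjusted p under 0.05, 7 members were higher for sugar (1.68% of all genes), 1 for fat (1.54%) and 3 for the interaction (1.47%). Without NF-Sugar replicate 2 the medians for fat and for the interaction were 0.06 and 0.22.

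**Figure D2:**
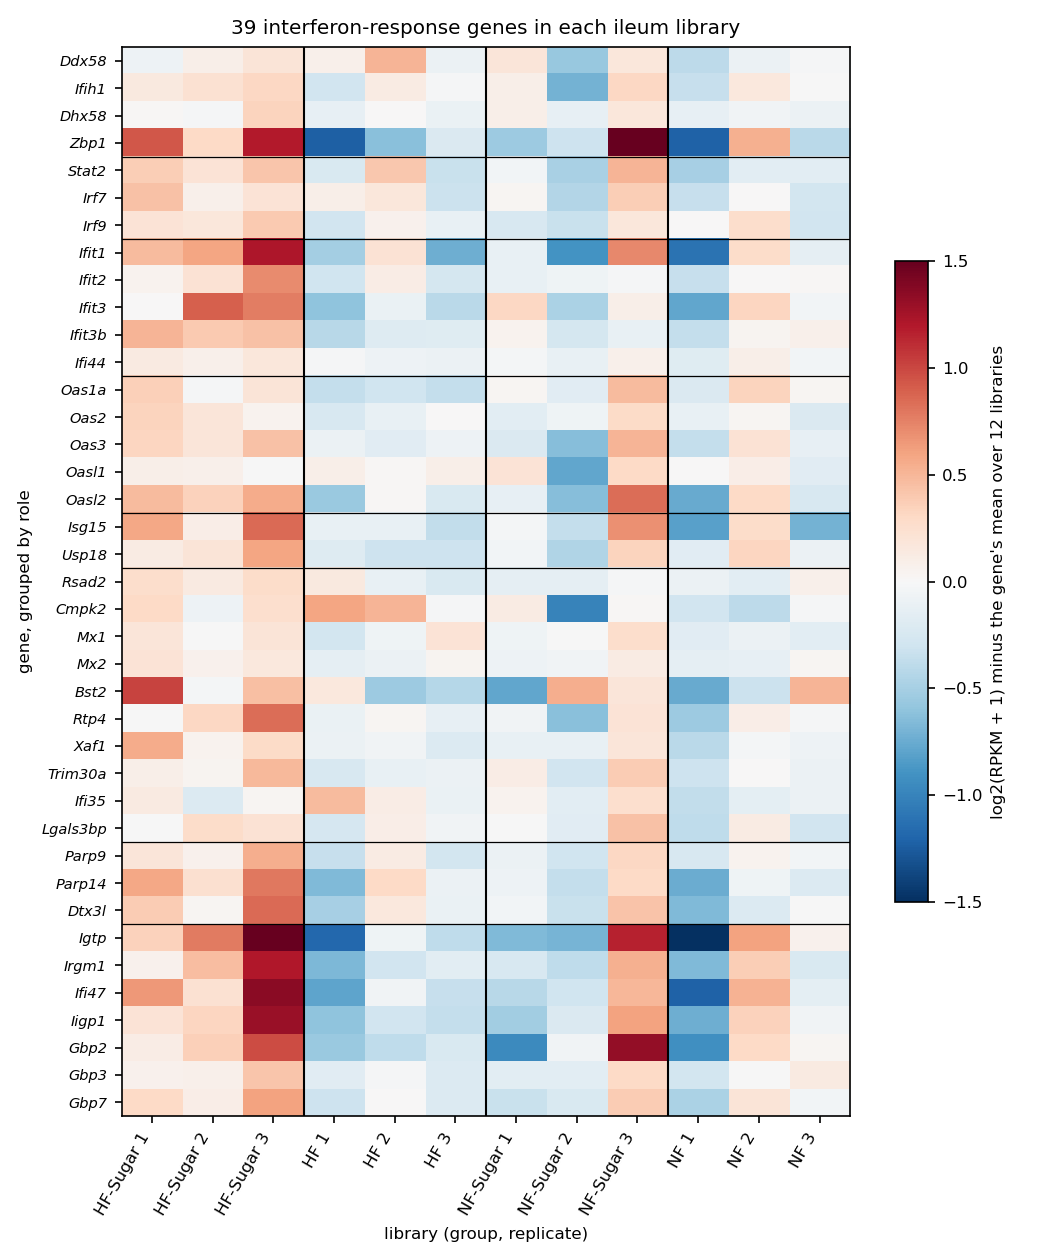
Color gives log2(RPKM + 1) minus the mean of the gene over the 12 libraries, from blue (below) to red (above), for the 39 genes (vertical axis, grouped by role) in each library (horizontal axis, 3 replicates a group). The 3 HF-Sugar columns are red over most rows, NF-Sugar replicate 3 is red while the other 2 NF-Sugar columns are mostly pale or blue, and NF replicate 1 is blue over most rows.

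The spread between mice of 1 group was shared across the set. NF replicate 1 was the lowest of its group for 34 of the 39 members (87.2%), against 33.3% of all tested genes. NF-Sugar replicate 3 was the highest of its group for 34 members, against 32.5% of all tested genes, and HF-Sugar replicate 3 for 27 members (69.2%), against 40.6%. Averaged over the 37 tested members, log2(scaled RPKM + 1) was 2.67, 2.60 and 2.88 in HF-Sugar mice, 2.07, 2.35 and 2.15 in HF mice, 2.30, 2.04 and 2.78 in NF-Sugar mice and 1.93, 2.60 and 2.19 in NF mice. The HF-Sugar libraries were therefore all high, and the HF libraries all lower, whereas the NF-Sugar and NF groups each held 1 library near the HF-Sugar level. Without NF replicate 1 the median difference between HF-Sugar and NF mice was 0.30 in place of 0.41, and without NF replicate 2 it was 0.55. Leaving out NF replicate 1 made the difference smaller by over 1.5 times for 17 of the 37 members, 6 of them GTPase genes, and turned that of Oas1a to -0.03. Without the 4 libraries that stood apart the median difference was 0.60, and 33 members were then wholly above in HF-Sugar, with 2 libraries left in each group. Separation is easier with so few libraries, and the share over all genes was not counted there.

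The Ifit genes encode proteins with tetratricopeptide repeats that bind foreign RNA and block its translation, and Ifit1, Ifit2, Ifit3 and Ifit3b lie within chr19:34550694-34650009 (GRCm38). Ifit1 stood at 7.39, 8.08 and 13.0 RPKM in HF-Sugar mice, 3.24, 6.02 and 2.63 in HF mice, 4.59, 2.24 and 8.98 in NF-Sugar mice and 1.80, 6.34 and 4.49 in NF mice. The 3 HF-Sugar libraries were above all libraries of HF and NF, while NF-Sugar replicate 3 reached into their range. The difference was 1.04 ± 0.45 (log2, SE) against NF mice (limma unadjusted p = 0.0447, adjusted p = 0.961) and 1.10 ± 0.45 against HF mice. Without NF replicate 1 the difference against NF mice was 0.66.

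Ifit3b gave the smallest p of the set in both comparisons. It stood at 1.998, 1.77 and 1.87 RPKM in HF-Sugar mice, 0.586, 0.856 and 0.866 in HF mice, 1.20, 0.768 and 0.950 in NF-Sugar mice and 0.654, 1.18 and 1.22 in NF mice. All 3 HF-Sugar libraries lay above all 9 others, with a mean of 1.88 RPKM and an SD of 0.114 RPKM. The difference was 0.50 ± 0.14 against NF mice (unadjusted p = 0.00435), 0.70 ± 0.14 against HF mice (unadjusted p = 0.000385, rank 13 of 17662 genes, adjusted p = 0.488) and 0.52 ± 0.14 against NF-Sugar mice (unadjusted p = 0.00306), all by limma. Ifit3b is a near copy of Ifit3, and how reads that match both were assigned is not given in the sources used here. Both genes gave whole reads in all 12 libraries. The 2 values may still not be fully separate measurements.

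Ifit3 itself stood at 2.75, 5.96 and 5.35 RPKM in HF-Sugar mice, 1.46, 2.46 and 1.81 in HF mice, 3.61, 1.67 and 2.97 in NF-Sugar mice and 1.18, 3.67 and 2.63 in NF mice. Its HF-Sugar libraries lay above the HF libraries, whereas NF replicate 2 and NF-Sugar replicates 1 and 3 exceeded HF-Sugar replicate 1. Ifit2 stood at 0.814, 1.02 and 1.86 RPKM in HF-Sugar mice, 0.415, 0.883 and 0.454 in HF mice, 0.610, 0.668 and 0.717 in NF-Sugar mice and 0.372, 0.759 and 0.759 in NF mice. It lay wholly above NF and NF-Sugar in HF-Sugar mice, and HF replicate 2 exceeded HF-Sugar replicate 1. Ifi44, a gene induced with the Ifit genes and with little known of its product, was below the level for testing, at 0.290, 0.232 and 0.321 RPKM in HF-Sugar mice, 0.157, 0.113 and 0.105 in HF mice, 0.151, 0.0808 and 0.235 in NF-Sugar mice and 0.0335, 0.249 and 0.135 in NF mice. Those values rest on 8 to 42 reads a library, and the HF-Sugar libraries (32 to 40 reads) lay above the HF libraries (13 to 23 reads) but overlapped NF replicate 2.

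**Figure D3:**
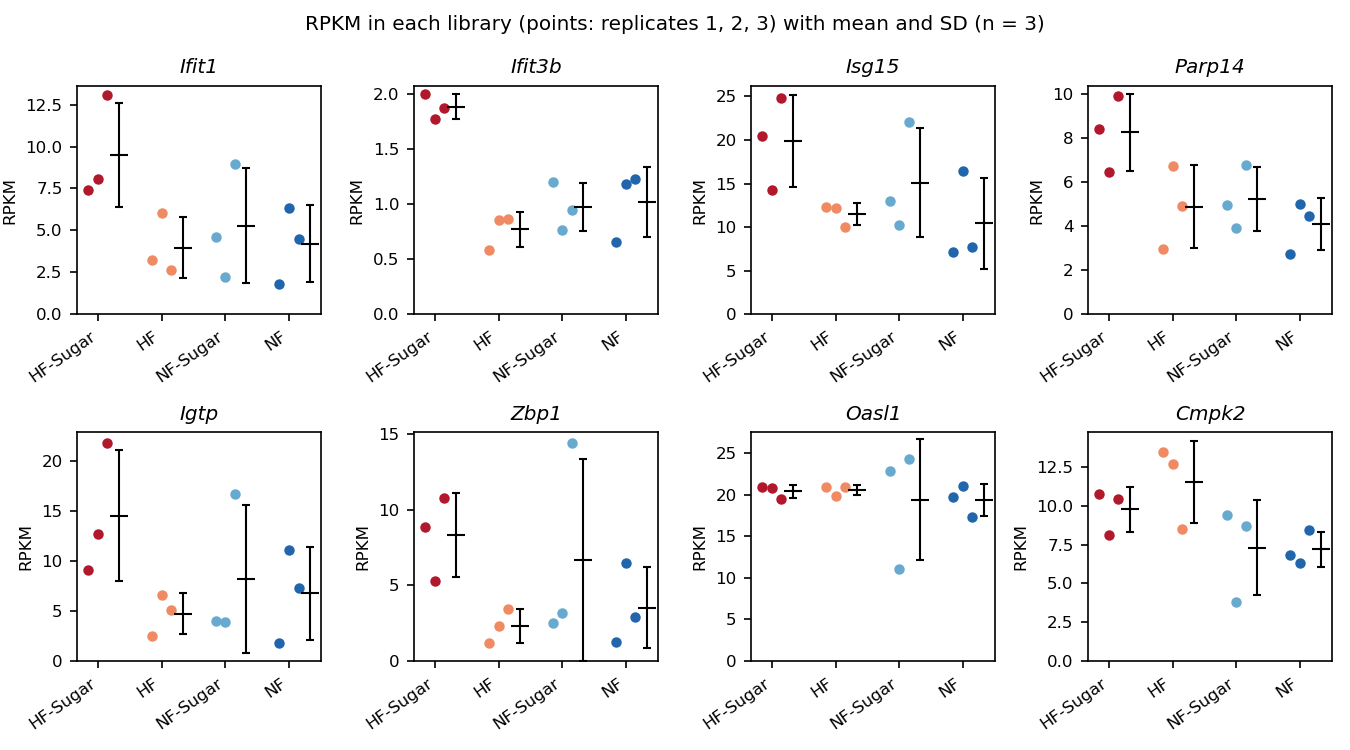
RPKM (vertical axes, from 0) of 8 members is shown for each library by group (horizontal axes), with points for replicates 1, 2 and 3 from left to right while a black bar gives the group's mean with its SD (n = 3). The HF-Sugar points of Ifit3b, at 1.77 to 1.998 RPKM, lie above all others, NF-Sugar replicate 3 is the highest point for Zbp1 at 14.4 RPKM, and Oasl1 shows no separation of the groups.

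Isg15 encodes a ubiquitin-like protein that is attached to other proteins, and Usp18 the protease that removes it and also restrains signaling at the type I receptor. Isg15 stood at 20.5, 14.3 and 24.9 RPKM in HF-Sugar mice, 12.3, 12.2 and 10.1 in HF mice, 13.0, 10.2 and 22.1 in NF-Sugar mice and 7.13, 16.4 and 7.78 in NF mice. NF replicate 2 and NF-Sugar replicate 3 reached into the range of the HF-Sugar libraries, and the HF libraries lay below that range. The mean in HF-Sugar was 1.91 times that in NF, with a difference of 0.87 ± 0.35 (unadjusted p = 0.029996, adjusted p = 0.961, limma). Usp18 stood at 1.10, 1.22 and 1.91 RPKM in HF-Sugar mice, 0.690, 0.564 and 0.564 in HF mice, 0.874, 0.408 and 1.43 in NF-Sugar mice and 0.715, 1.42 and 0.823 in NF mice. Its HF libraries lay wholly below both the HF-Sugar and the NF libraries, a pattern that only Oas1a among the members shared.

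Of the sensors, Ddx58 (RIG-I), Ifih1 (MDA5) and Dhx58 (LGP2) encode helicases that bind viral RNA, and Zbp1 a sensor of left-handed nucleic acid that can trigger cell death. Zbp1 stood at 8.83, 5.31 and 10.8 RPKM in HF-Sugar mice, 1.21, 2.32 and 3.43 in HF mice, 2.54, 3.14 and 14.4 in NF-Sugar mice and 1.22, 6.46 and 2.88 in NF mice. Its highest value was in NF-Sugar replicate 3, and the HF-Sugar libraries were above all HF libraries but not above all NF libraries. The difference was 1.12 ± 0.58 against NF mice and 1.49 ± 0.58 against HF mice, the largest fitted differences of the set and the least precise but for Igtp. Without NF replicate 1 the difference against NF mice was 0.71. Ifih1 stood at 4.18, 4.52 and 4.81 RPKM in HF-Sugar mice, 2.85, 4.13 and 3.63 in HF mice, 3.98, 1.86 and 4.81 in NF-Sugar mice and 2.70, 4.23 and 3.68 in NF mice. Dhx58 stood at 1.45, 1.3998 and 2.04 RPKM in HF-Sugar mice, 1.21, 1.44 and 1.27 in HF mice, 1.58, 1.22 and 1.72 in NF-Sugar mice and 1.23, 1.34 and 1.27 in NF mice. Both differed little between groups, by 0.25 ± 0.25 and 0.16 ± 0.11 in HF-Sugar against NF, although the HF-Sugar libraries of Dhx58 cleared the NF libraries and those of Ifih1 the HF libraries. Ddx58, at 1.77 to 4.85 RPKM, had its highest value in HF replicate 2 and a difference of -0.09 ± 0.22 against HF mice.

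Stat2 and Irf9 are parts of the complex that binds the ISRE, and Irf7 drives transcription of type I interferon genes. Stat2 stood at 7.22, 6.29 and 7.47 RPKM in HF-Sugar mice, 4.41, 7.42 and 4.02 in HF mice, 5.19, 3.52 and 8.00 in NF-Sugar mice and 3.50, 4.67 and 4.70 in NF mice. The HF-Sugar libraries lay above the NF libraries, and HF replicate 2 and NF-Sugar replicate 3 reached their range. Irf7 stood at 38.6, 29.7 and 32.7 RPKM in HF-Sugar mice, 29.99, 32.0 and 22.3 in HF mice, 28.8, 20.5 and 36.8 in NF-Sugar mice and 21.9, 28.3 and 23.0 in NF mice. Irf9 stood at 6.03, 5.84 and 6.97 RPKM in HF-Sugar mice, 3.98, 5.40 and 4.65 in HF mice, 4.16, 3.82 and 5.87 in NF-Sugar mice and 5.11, 6.33 and 3.98 in NF mice. Irf7 separated HF-Sugar from NF and Irf9 separated HF-Sugar from HF, with differences of 0.39 ± 0.24 and 0.36 ± 0.20. Irf9 shares exon sequence with Rnf31 on the same strand, and its values did not resolve into whole reads.

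The Oas genes encode enzymes that make oligoadenylate upon binding double-stranded RNA and so activate RNase L, while Oasl1 and Oasl2 are related proteins of which Oasl1 has no such activity. All 5 lie on chromosome 5. Oas1a stood at 9.21, 6.86 and 8.08 RPKM in HF-Sugar mice, 5.22, 5.47 and 5.22 in HF mice, 7.12, 6.04 and 10.0 in NF-Sugar mice and 5.84, 9.02 and 7.14 in NF mice. The 3 HF libraries, with an SD of 0.146 RPKM, lay below all 9 others. The difference was 0.52 ± 0.20 in HF-Sugar against HF and -0.44 ± 0.20 in HF against NF (unadjusted p = 0.0480, adjusted p = 0.9997, limma), and only 0.08 ± 0.20 in HF-Sugar against NF.

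Oas2 stood at 0.788, 0.607 and 0.469 RPKM in HF-Sugar mice, 0.197, 0.312 and 0.422 in HF mice, 0.264, 0.356 and 0.721 in NF-Sugar mice and 0.311, 0.441 and 0.214 in NF mice. Oas3 stood at 2.22, 1.93 and 2.48 RPKM in HF-Sugar mice, 1.43, 1.29 and 1.43 in HF mice, 1.21, 0.651 and 2.68 in NF-Sugar mice and 1.02, 1.99 and 1.37 in NF mice. Oasl2 stood at 9.05, 8.23 and 9.64 RPKM in HF-Sugar mice, 3.94, 6.32 and 5.18 in HF mice, 5.66, 3.64 and 12.0 in NF-Sugar mice and 3.27, 7.93 and 5.15 in NF mice. In HF-Sugar mice Oas2, Oas3 and Oasl2 lay wholly above HF, and Oas2 and Oasl2 wholly above NF, while NF-Sugar replicate 3 exceeded 2 or more HF-Sugar libraries for each. Oas2 passed the filter only through its HF-Sugar libraries, so its separation was in part set by the filter. Oasl1 did not follow Oas2, Oas3 and Oasl2. It stood at 19.5 to 21.0 RPKM in HF-Sugar mice, 19.9 to 21.0 in HF mice, 11.0 to 24.4 in NF-Sugar mice and 17.3 to 21.1 in NF mice, with a difference of 0.02 ± 0.26 against NF mice and -0.01 ± 0.26 against HF mice. The paralogs of this family share sequence, and how multiply matching reads were assigned to them is not given in the sources used here.

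Among other antiviral effectors, Rsad2 (viperin) makes a nucleotide that ends viral RNA chains, and its neighbor Cmpk2 supplies the nucleotide it acts on. Rsad2 stood at 1.31, 1.13 and 1.33 RPKM in HF-Sugar mice, 1.14, 0.789 and 0.650 in HF mice, 0.757, 0.754 and 0.907 in NF-Sugar mice and 0.811, 0.729 and 1.03 in NF mice. The HF-Sugar libraries lay above those of NF and NF-Sugar, and HF replicate 1 exceeded 1 of them. The difference was 0.26 ± 0.10 against NF mice and 0.29 ± 0.10 against HF mice (unadjusted p = 0.0185, limma). Cmpk2 stood at 10.8, 8.09 and 10.4 RPKM in HF-Sugar mice, 13.4, 12.7 and 8.496 in HF mice, 9.41, 3.79 and 8.69 in NF-Sugar mice and 6.84, 6.30 and 8.47 in NF mice. Its mean was highest in HF mice, whose libraries lay just above the NF libraries, with a fitted difference of 0.55 ± 0.28 (adjusted p = 0.9997, limma), so the 2 neighbors differed in their order of groups.

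Xaf1 encodes a factor that promotes apoptosis, Trim30a a member of the tripartite motif family, and Mx1 and Mx2 dynamin-like GTPases that block virus replication. Xaf1 stood at 2.22, 1.27 and 1.66 RPKM in HF-Sugar mice, 1.05, 1.10 and 0.897 in HF mice, 1.02, 1.02 and 1.48 in NF-Sugar mice and 0.646, 1.13 and 1.07 in NF mice. Trim30a stood at 1.24, 1.17 and 1.97 RPKM in HF-Sugar mice, 0.794, 0.956 and 0.999 in HF mice, 1.29, 0.735 and 1.75 in NF-Sugar mice and 0.712, 1.13 and 0.997 in NF mice. In unscaled RPKM both lay wholly above HF and NF in HF-Sugar mice. Against NF the fitted difference was 0.44 ± 0.15 for Xaf1 (unadjusted p = 0.0135) and 0.30 ± 0.17 for Trim30a (unadjusted p = 0.115), by limma. Mx1 stood at 0.828, 0.611 and 0.842 RPKM in HF-Sugar mice, 0.333, 0.545 and 0.855 in HF mice, 0.542, 0.611 and 0.934 in NF-Sugar mice and 0.429, 0.518 and 0.443 in NF mice. Its NF libraries lay below all HF-Sugar and all NF-Sugar libraries. C57BL/6 mice are known to carry a defective Mx1 gene, so the transcript does not stand for an active protein. Mx2 is annotated as a polymorphic pseudogene, so its transcript may not stand for an active protein either. Mx2, on 14 to 39 reads a library and not tested, stood at 0.479, 0.333 and 0.425 RPKM in HF-Sugar mice, 0.162, 0.205 and 0.315 in HF mice, 0.209, 0.233 and 0.399 in NF-Sugar mice and 0.163, 0.171 and 0.309 in NF mice, with the HF-Sugar libraries above all HF and NF libraries.

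The other 4 effectors overlapped in all 5 pairs of groups compared. Bst2, or tetherin, which holds budding virus at the cell surface, ranged from 3.21 RPKM in NF-Sugar replicate 1 to 13.6 in HF-Sugar replicate 1, and Rtp4, a chaperone of G protein-coupled receptors, from 1.84 to 6.77 RPKM. Their differences in HF-Sugar against NF were 0.62 ± 0.39 and 0.49 ± 0.25, and without NF replicate 1 they were 0.36 and 0.31. Ifi35 and Lgals3bp, the most abundant members, differed by 0.13 ± 0.18 and 0.28 ± 0.22, and Ifi35 was highest in HF replicate 1 (48.8 RPKM).

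Parp9, Parp14 and Dtx3l encode ADP-ribosyltransferases and their ubiquitin ligase partner, which act together in the interferon response, and their genes lie next to each other within chr16:35832874-35972605 (GRCm38). Parp14 stood at 8.41, 6.45 and 9.93 RPKM in HF-Sugar mice, 2.98, 6.74 and 4.92 in HF mice, 4.99, 3.94 and 6.79 in NF-Sugar mice and 2.76, 5.02 and 4.49 in NF mice. Dtx3l stood at 8.70, 6.56 and 12.3 RPKM in HF-Sugar mice, 4.26, 7.30 and 5.94 in HF mice, 6.23, 4.88 and 8.95 in NF-Sugar mice and 3.70, 5.45 and 6.40 in NF mice. Parp9 stood at 12.0, 11.0 and 15.8 RPKM in HF-Sugar mice, 8.05, 11.5 and 8.43 in HF mice, 9.74, 8.33 and 13.2 in NF-Sugar mice and 8.70, 10.9 and 10.2 in NF mice. For each of the 3 the HF-Sugar libraries lay above the NF libraries, and HF replicate 2 reached into their range. The differences against NF were 0.83 ± 0.27 (unadjusted p = 0.0120), 0.66 ± 0.26 (unadjusted p = 0.0264) and 0.29 ± 0.19 (unadjusted p = 0.170), all by limma. Parp9 and Dtx3l overlap in exon sequence on opposite strands, and whether the counting used strand is not given in the sources used here, so their values may share reads.

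The interferon-inducible GTPases, which load onto the vacuoles of intracellular microbes, had the largest median difference of the roles with more than 3 tested genes: 0.70 in HF-Sugar against NF and 0.95 against HF. Without NF replicate 1 the median against NF was 0.44. All 7 lay above 0 in both comparisons, and all 7 were wholly above HF in HF-Sugar mice. None of the 7 was wholly above NF, as NF replicate 2 exceeded the lowest HF-Sugar library for 6 of them and NF replicate 3 did so for Gbp3. Among members, they are the ones best known as targets of type II interferon.

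Igtp stood at 9.10, 12.7 and 21.8 RPKM in HF-Sugar mice, 2.52, 6.58 and 5.10 in HF mice, 4.01, 3.88 and 16.7 in NF-Sugar mice and 1.81, 11.1 and 7.33 in NF mice. Ifi47 stood at 17.96, 13.2 and 29.7 RPKM in HF-Sugar mice, 5.96, 10.7 and 8.51 in HF mice, 8.04, 8.80 and 16.0 in NF-Sugar mice and 4.22, 16.3 and 9.89 in NF mice. Iigp1 stood at 2.15, 2.41 and 5.67 RPKM in HF-Sugar mice, 0.791, 1.23 and 1.13 in HF mice, 0.903, 1.35 and 3.13 in NF-Sugar mice and 0.633, 2.45 and 1.62 in NF mice. Each had its highest value in HF-Sugar replicate 3 and its lowest in NF replicate 1. Against HF mice the differences were 1.42 ± 0.62, 1.14 ± 0.43 and 1.02 ± 0.36 (unadjusted p = 0.0431, 0.0247 and 0.0168, limma). Without NF replicate 1 the difference of Igtp between HF-Sugar and NF mice was 0.52 in place of 1.11, and that of Ifi47 0.53 in place of 0.97. Igtp overlaps Irgm2 and Ifi47 overlaps Olfr56, each on the same strand, so these genes may share reads.

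Irgm1 stood at 4.88, 6.79 and 11.9 RPKM in HF-Sugar mice, 2.53, 3.64 and 4.05 in HF mice, 3.80, 3.32 and 7.18 in NF-Sugar mice and 2.57, 6.32 and 3.82 in NF mice. Gbp2 stood at 4.99, 6.14 and 9.91 RPKM in HF-Sugar mice, 2.76, 3.27 and 3.76 in HF mice, 1.87, 4.35 and 12.8 in NF-Sugar mice and 1.93, 5.84 and 4.66 in NF mice. Gbp2 had its highest value in NF-Sugar replicate 3 and its lowest in NF-Sugar replicate 1, so the spread inside that group was wider than any difference between group means. Gbp7 stood at 1.24, 0.961 and 1.78 RPKM in HF-Sugar mice, 0.471, 0.826 and 0.586 in HF mice, 0.448, 0.557 and 1.38 in NF-Sugar mice and 0.309, 1.08 and 0.775 in NF mice. Gbp3 stood at 0.625, 0.637 and 1.07 RPKM in HF-Sugar mice, 0.384, 0.538 and 0.348 in HF mice, 0.399, 0.394 and 0.923 in NF-Sugar mice and 0.283, 0.557 and 0.710 in NF mice. The guanylate-binding proteins Gbp2, Gbp3 and Gbp7 are neighbors on chromosome 3 and share sequence, with differences of 0.87 ± 0.49, 0.31 ± 0.15 and 0.50 ± 0.22 in HF-Sugar against HF.

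**Figure D4:**
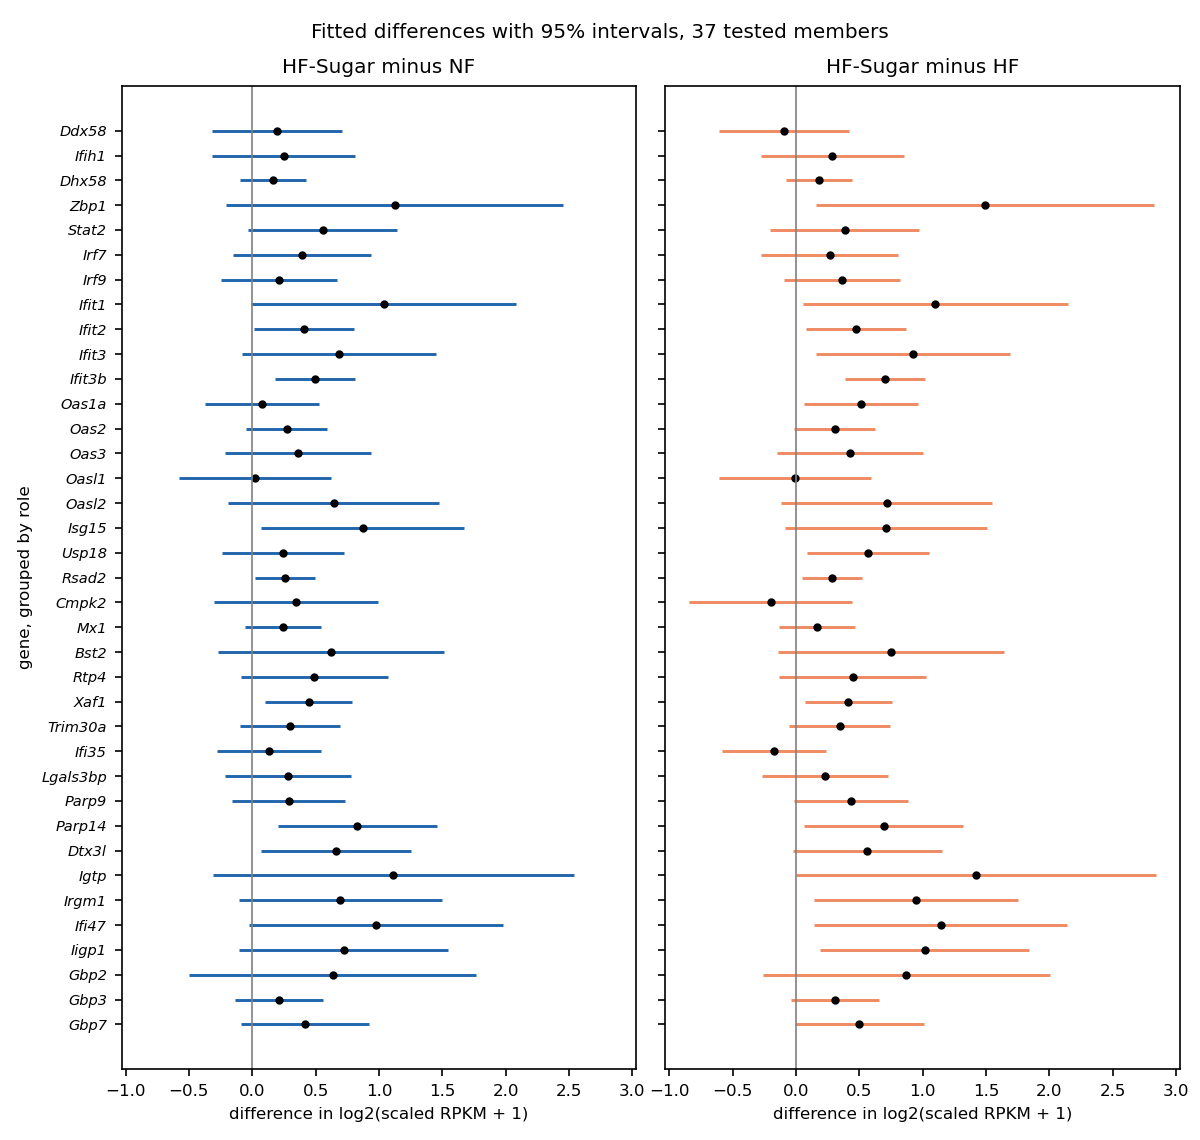
Fitted differences in log2(scaled RPKM + 1) (horizontal axes) are shown for the 37 tested members (vertical axis, grouped by role), for HF-Sugar minus NF on the left and HF-Sugar minus HF on the right. The 95% intervals were built from the limma standard errors with 8 residual degrees of freedom. The p-values of limma rest on more degrees of freedom. The left intervals of Ifit1 and Ifi47 therefore include 0 although their unadjusted p is under 0.05. All 37 points on the left and 33 of 37 on the right lie above 0, and most intervals include 0 (9 members on the left and 16 on the right have an unadjusted p under 0.05).

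Of the interferon genes themselves only Ifng, the type II ligand made by T and natural killer cells, reached the level for testing. It stood at 0.773, 0.528 and 0.732 RPKM in HF-Sugar mice, 0.0323, 0.0357 and 0.191 in HF mice, 0, 0.0382 and 0.0506 in NF-Sugar mice and 0.0123, 0 and 0.149 in NF mice. It was tested only because its 3 HF-Sugar libraries reached 0.5 RPKM, so its separation was part of the condition for testing. Those 3 values amount to 22.5, 18.7 and 15.4 reads, which are not whole numbers, and NF replicates 1 and 3 to 0.62 and 4.66 reads, while the HF and NF-Sugar libraries had whole reads (0 to 5). A library at 0 reads can hold up to 3 reads by counting error, or 0.0842 RPKM in NF replicate 2 and 0.0974 RPKM in NF-Sugar replicate 1. Of the other 20 ligand genes listed, which include those of type I and type III interferons, 18 stayed at or below 0.196 RPKM in every library and 2 were not analysed here. Of the 39 members, 27 gave whole reads in all 12 libraries, and 12 gave fractions of a read in 2 to 12 libraries.

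Receptor and kinase genes lay on both sides of 0, with 3 of 9 above it and a median of -0.03 in HF-Sugar against NF, and none passing. Ifngr1 and Ifngr2, which encode the type II receptor, differed by -0.22 ± 0.15 and -0.22 ± 0.13, and Ifnar1 and Ifnar2, which encode the type I receptor, by 0.19 ± 0.17 and 0.13 ± 0.13. Of 10 factors and inhibitors 6 lay above 0. Irf8, a factor of myeloid and B cells, differed by 0.60 ± 0.19, Irf1, a factor induced early by interferons, by 0.45 ± 0.28, and Socs3, an inhibitor of Jak signaling, by -0.78 ± 0.69 against NF. Of 12 tested genes of nucleic acid sensing 9 lay above 0 (median of the 12, 0.10), led by the endosomal receptors Tlr9 (0.52 ± 0.12) and Tlr3 (0.61 ± 0.20), with the adaptor Mavs at 0.24 ± 0.14 and the RNA-editing enzyme Adar at 0.22 ± 0.14.

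A further list of interferon-stimulated genes that are not members, also chosen with earlier results of these data known, went the same way. Of its 55 tested genes, 49 lay above 0 in HF-Sugar against NF (48.2% of all genes), with a median of 0.30, and 45 in HF-Sugar against HF, with a median of 0.29, and none passed in either. Gbp4, Herc6 and Ifi203 were tested only through their HF-Sugar libraries, and without them 46 of 52 lay above 0 against NF and 42 of 52 against HF. The smallest p against NF were those of Cxcl10, a chemokine that draws T cells, with 1.26 ± 0.19 (adjusted p = 0.212, limma), of Sp110 (0.33 ± 0.09), of the GTPase gene Tgtp1 (0.94 ± 0.29) and of Rnf213 (0.71 ± 0.23). Cxcl10 was at 2.28 to 4.01 RPKM in HF-Sugar mice and at 0.376 to 1.31 RPKM in the 9 others, and 2 of its HF-Sugar values amount to fractions of a read (194.4 and 140.7 reads). All libraries outside HF-Sugar had whole reads of Cxcl10, within 0.1 read. The reason is not given in the sources used here. The order of libraries was shared as well, with NF replicate 1 the lowest of its group for 83.6% of the 55 genes and NF-Sugar replicate 3 the highest of its group for 72.7%. The list comes from the same mice and is not separate support for the members.

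Markers of some of the cell types in the tissue are given for the same groups. All 12 macrophage and dendritic cell markers lay above 0 in HF-Sugar against NF (median 0.17) and 11 of 12 in HF-Sugar against HF (median 0.28), and none passed. Their summed level was 150 to 296 RPKM in HF-Sugar mice, 120 to 263 in HF mice, 149 to 266 in NF-Sugar mice and 145 to 219 in NF mice, so the groups overlapped. Of 13 B and plasma cell markers 12 lay above 0 against NF (median 0.32) and 9 against HF (median 0.08). Of 12 T cell markers 5 lay above 0 against NF (median -0.04) and 11 against HF (median 0.21), and their sum was 22.3 to 43.4 RPKM in HF-Sugar mice, 14.1 to 33.1 in HF mice, 13.3 to 27.2 in NF-Sugar mice and 12.6 to 45.6 in NF mice. All 8 enterocyte markers lay below 0 in HF-Sugar against NF (median -0.39) and against HF (median -0.41), with sums of 7024 to 8861 RPKM in HF-Sugar mice, 9619 to 20859 in HF mice, 5608 to 11812 in NF-Sugar mice and 9799 to 13201 in NF mice. A separate list of ileal enterocyte markers overlapped between groups. Its sums were 3320 to 10090 RPKM in HF-Sugar mice, 3424 to 8582 in HF, 3516 to 4221 in NF-Sugar and 3527 to 10866 in NF. All 6 smooth muscle markers lay below 0 against NF (median -0.29) and 3 of 6 against HF (median -0.02). Summed endothelium markers were at 10.1 to 13.4 RPKM in HF-Sugar mice, above NF-Sugar mice (8.91 to 9.40) and NF mice (7.33 to 9.16). They overlapped those of HF mice (8.75 to 10.3). For plasmacytoid dendritic cell markers the HF-Sugar range, 37.6 to 63.3 RPKM, took in those of HF (41.0 to 51.4), NF-Sugar (52.4 to 55.5) and NF (45.1 to 48.1). No marker of the lists named here was at 0 in any library, and the part of cell composition in the differences of the members was not tested.

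**Figure D5:**
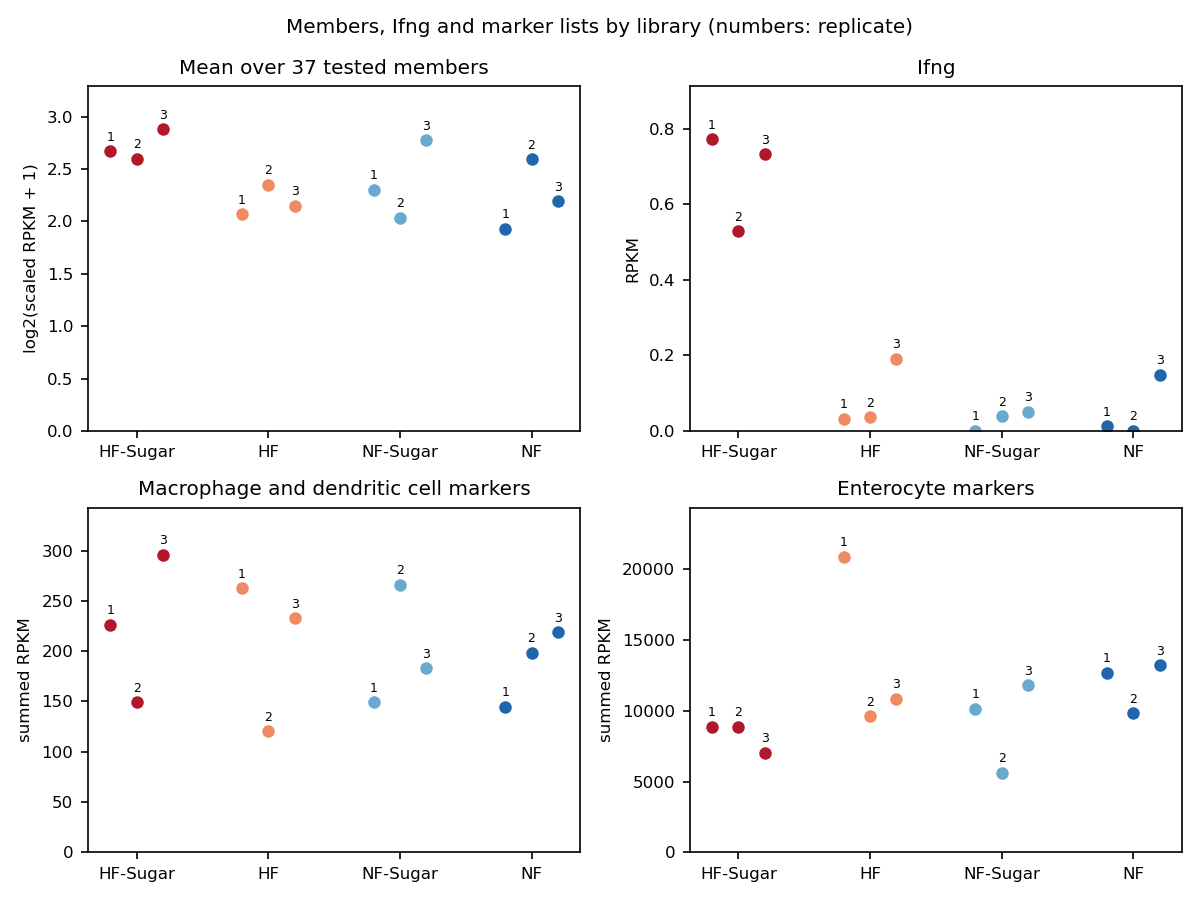
The 4 panels give, for each library by group (horizontal axes, points numbered by replicate), the mean of log2(scaled RPKM + 1) over the 37 tested members, the RPKM of Ifng, and the summed RPKM of the macrophage and dendritic cell markers and of the enterocyte markers, all axes from 0. The member mean is 2.601 to 2.88 in HF-Sugar and 2.07 to 2.35 in HF. NF-Sugar replicate 3 (2.78) lies in the HF-Sugar range and NF replicate 2 (2.597) just below it. Ifng stands at 0.0506 and 0 RPKM in those libraries, on 1 and 0 reads.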

How the data were processed

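The 39 members and all gene lists were chosen with earlier results of these data known. RNA from the ileum of each mouse was sequenced separately. The paper states that mRNA was taken from the total RNA and depleted of rRNA before libraries were made. The authors aligned Ion Proton reads to mm10 in Partek Flow with STAR and Ensembl gene models, and deposited RPKM values per gene and library, in 12 single files that match the columns of 1 table. How reads that match several genes were assigned is not given in the sources used here. Rows named by a bare number (26) were left out, which left 44205 genes.

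Reads were recovered from the RPKM steps only to give depth (15.3 to 38.97 M reads) and counting error. A read value was called whole within 0.1 read. RPKM was scaled by TMM, and log2(scaled RPKM + 1) was fitted with limma 3.58.1 (trend, R 4.3.3) over the 17662 genes that reached 0.5 RPKM in 3 or more libraries, with 1 shared spread over the 4 groups and no replicate block. P-values were adjusted by Benjamini-Hochberg over all tested genes, with a threshold of 0.05. The fit was tested on simulated data. A count test was not the main result because RPKM values are not counts. With 3 mice against 3, an exact permutation test of 1 gene cannot go below p = 0.1.

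Values in every library are given for members whose groups did not overlap in a pairwise comparison or that were among the 12 with the smallest p in HF-Sugar against NF, with at least 1 per role, and up to 4 genes per other list by the same p, plus Ifng. A gene that this rule names is not reported here. Mouse numbers recur across groups without a stated litter or day. Deviations of same-numbered libraries from their group means correlated at 0.19, 0.51 and 0.22 between HF-Sugar and NF and at 0.49, 0.56 and 0.13 between HF-Sugar and HF. Between HF and NF they correlated at 0.13, 0.56 and 0.07. With NF-Sugar most were below 0, at -0.44, -0.43 and -0.04 for HF-Sugar and -0.12, -0.42 and 0.26 for NF. The numbers may pair samples of some groups, which these values do not settle. Alternatives were other scalings, pseudocounts, filters and fits, the block and leaving out libraries.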

Additional observations from a re-analysis of the deposited data

How the results depend on the processing

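No member passed the adjusted limma threshold under any alternative run (scaling, pseudocount, filter, replicate block, libraries, covariate, recovered reads by voom, the study's 2-fold and 0.01 thresholds). In HF-Sugar against NF the median difference of the members was 0.65 with a pseudocount of 0.1, 0.66 by voom, 0.61 over genes with a mean of at least 2 RPKM and 0.60 without the 4 libraries that stood apart. In HF-Sugar against HF it was 0.67, 0.71 and 0.62 with the pseudocount, by voom and without the 4 libraries. With 1 library left out at a time the median ranged from 0.30 to 0.55 in HF-Sugar against NF, 0.39 to 0.55 against HF, 0.13 (without NF-Sugar replicate 2) to 0.52 (without NF-Sugar replicate 3) against NF-Sugar, -0.16 (without NF replicate 1) to 0.12 (without NF replicate 2) in HF against NF, -0.07 (without NF-Sugar replicate 3) to 0.27 (without NF-Sugar replicate 2) in NF-Sugar against NF, 0.06 to 0.22 for fat, 0.20 to 0.34 for sugar and 0.22 to 0.55 for the interaction. The signs of the 2 comparisons of a single diet component with NF thus rest on single libraries, and that of HF against NF was also turned, to 0.03, without the 4 libraries. The number of members wholly above was 9 of 37 after TMM scaling in HF-Sugar against NF (15 before) and 33 without the 4 libraries, and it ranged from 15 to 30 with 1 library left out (30 without NF replicate 2, 23 without HF-Sugar replicate 1). Against HF it was 32 without the 4 libraries and 21 to 29 with 1 left out. After TMM scaling 1141 of the 17662 tested genes were wholly above in HF-Sugar against NF. Fewer libraries make separation easier by construction. The share over all genes was not counted with libraries left out, so those counts have no background beside them. The counts with 1 library left out, and all alternatives for the count against HF, were chosen after seeing the data. With the mouse number as replicate block 0 members passed and the medians stayed at 0.41 against NF and 0.45 against HF, with 10 and 18 members at an unadjusted p under 0.05. The block changed no call. Ifi44 and Mx2 rest on 8 to 42 reads a library, where small differences were not detectable.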
